A study of Homo sapiens with 12 samples.

Results

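Immediate early genes are transcribed within minutes of a growth or stress signal, from factors that already sit in the cell, and many encode transcription factors that set the later response. The ERK branch of the MAP kinase cascade is a main route to them, and it also switches on its own brakes: dual-specificity phosphatases (DUSP), which remove the phosphates that activate MAP kinases, and the Sprouty and SPRED proteins, which hold back RAS and RAF. GPR54, the kisspeptin receptor encoded by KISS1R, couples through Gq to phospholipase C and activates ERK, which is why these genes are of interest in cells given its ligand. The set described here is a list of 38 genes, which also holds the kinase gene MAPK3 and the CREB/ATF factor gene CREB5. The genes were read in the deposited table by platform gene symbol and represented by the probe set with the highest mean over all arrays. Of the 38, 37 genes were measured, at 88 probe sets, out of 19775 genes and 54613 probe sets in all. EGR2 was not analysed here.

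The cells were Ishikawa, 1 established line of endometrial adenocarcinoma, and the 12 Affymetrix U133 Plus 2.0 arrays form 4 groups of 3. The groups were cells labelled as transfected with GPR54 siRNA and given metastin-10, cells labelled GPR54 siRNA and given a control peptide, cells with control siRNA and metastin-10, and cells with control siRNA and the control peptide. Every group carried an siRNA for 48 h and a peptide for 24 h. Metastin-10 is the C-terminal fragment of the KISS1 product, used at 10 µM, and the design asks which transcripts follow it and whether they do so by way of GPR54. The labels call the 3 arrays of a group biological replicates.

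A single time was read, 24 h after the peptide, so the early minutes and hours in which FOS or EGR1 usually respond were not analysed here. The siRNA label was not borne out by its target. KISS1R stood at 9.60, 9.42 and 9.28 in the metastin-10 arrays labelled GPR54 siRNA, at 9.46, 9.45 and 9.36 in the control peptide arrays with that label, at 8.43, 8.42 and 8.35 in control siRNA with metastin-10, and at 9.39, 9.32 and 9.14 in control siRNA with control peptide (log2). The low KISS1R values belong to control siRNA with metastin-10, and the arrays labelled GPR54 siRNA were not lower than control siRNA with either peptide, so the siRNA groups are called by their labels throughout. The group with low KISS1R is also the one that carries the CREB5 and KLF4 calls below. Whether its arrays are assigned to the right siRNA and peptide was not tested, and each difference below is between arrays as labelled. The part of the transcript that this probe set reads relative to the siRNA's target was not tested. In each group the array of replicate 3 differed in its quality control, with an actin 3 prime minus 5 prime difference of 0.29 to 0.36 against 0.66 to 0.90 on the other arrays (log2). The first axis of variation (27.7% of the variance) set the replicate 3 arrays, at 17.4 to 36.8, apart from the others, at -26.3 to 14.0. Metastin-10 replicates 1 and 2 of control siRNA stood apart on the second axis (21.4%), at 29.2 and above against 10.9 and below on the other arrays. The epithelial markers KRT8, KRT18, KRT19, EPCAM, CDH1 and PAX8 averaged 12.3 to 12.6 on each array, against 5.04 to 5.22 for 6 stromal fibroblast markers, 4.79 to 5.05 for 5 endothelial ones and 3.97 to 4.47 for 3 leukocyte ones (log2). The stromal markers were not all low. COL1A1 averaged 9.84 over the 12 arrays, and the rest 2.56 to 5.18. The highest endothelial marker was VWF, at 6.97. The arrays hold RNA of whole cultures, in which fewer cells of a kind and less RNA per cell cannot be told apart.

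Promoter sequence was available from RefSeq (GRCh38.p14) for 28 of the 38 listed genes, as 39 windows that run from 250 bases before to 50 bases after a gene's start. The windows were searched on both strands for the CArG box, which binds serum response factor, for the AP-1 letters TGANTCA, for the cAMP response element TGACGTCA, which CREB family proteins bind, and for GCGGGGGCG, which EGR proteins bind. Each match is a description and not a site shown to be used. A CArG box was in 2 of the 39 windows (5.13%), those of EGR1 and EGR2, against 1.29% of all 35116 windows. AP-1 letters were in 3 (7.69%, against 7.71% of all), the cAMP response element in 2 (5.13%, against 1.85%) and the EGR letters in 6 (15.4%, against 5.07%). The 250 bases before the start are shown for KLF4 and CREB5, the members called with metastin-10, for DUSP6, which was called only with the replicate number in the fit, and for EGR1 and DUSP1, textbook targets of serum response factor and of CREB. The windows of KLF4 and DUSP6 held none of the 4 motifs. Of the 3 CREB5 windows, 1 held the AP-1 letters, and that one is shown. Capitals mark the AP-1 letters in CREB5, the CArG boxes in EGR1 and the cAMP response element in DUSP1.
KLF4 (chr9:107489770-107490019, minus strand): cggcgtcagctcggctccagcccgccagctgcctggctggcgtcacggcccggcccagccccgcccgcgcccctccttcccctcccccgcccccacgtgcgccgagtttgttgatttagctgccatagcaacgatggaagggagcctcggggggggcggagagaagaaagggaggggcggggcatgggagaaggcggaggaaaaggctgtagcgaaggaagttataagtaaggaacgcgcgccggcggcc
CREB5 (chr7:28685883-28686132, plus strand): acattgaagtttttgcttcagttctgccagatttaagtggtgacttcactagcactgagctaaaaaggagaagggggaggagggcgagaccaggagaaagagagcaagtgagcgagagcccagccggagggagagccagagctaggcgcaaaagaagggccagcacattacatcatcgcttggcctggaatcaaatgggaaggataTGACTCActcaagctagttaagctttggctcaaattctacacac
DUSP6 (chr12:89352502-89352751, minus strand): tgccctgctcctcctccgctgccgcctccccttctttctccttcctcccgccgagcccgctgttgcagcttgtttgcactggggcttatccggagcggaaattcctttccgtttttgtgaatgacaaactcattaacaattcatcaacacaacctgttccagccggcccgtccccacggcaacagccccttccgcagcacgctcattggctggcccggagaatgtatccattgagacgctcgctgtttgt
EGR1 (chr5:138465229-138465478, plus strand): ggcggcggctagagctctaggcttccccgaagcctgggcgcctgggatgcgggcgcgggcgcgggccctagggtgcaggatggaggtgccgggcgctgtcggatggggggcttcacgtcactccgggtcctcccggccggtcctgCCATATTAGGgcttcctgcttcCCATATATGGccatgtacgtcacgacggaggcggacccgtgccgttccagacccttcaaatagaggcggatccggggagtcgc
DUSP1 (chr5:172771196-172771445, minus strand): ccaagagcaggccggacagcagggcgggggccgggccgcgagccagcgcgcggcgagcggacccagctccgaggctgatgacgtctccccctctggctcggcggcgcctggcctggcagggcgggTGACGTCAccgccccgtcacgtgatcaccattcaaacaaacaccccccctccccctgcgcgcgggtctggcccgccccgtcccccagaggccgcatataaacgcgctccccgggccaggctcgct

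The members were first compared between metastin-10 and control peptide in cells with control siRNA. With a call at an adjusted p under 0.05 (limma, Benjamini-Hochberg over all 54613 probe sets), 2 of the 37 genes passed: CREB5 rose and KLF4 fell. Over all genes 0.0759% were called higher and 0.531% lower. The list was chosen with earlier results of these data known, and CREB5 was already among the genes shown to change. The shares over all genes, here and below, are therefore no test of the list. NR4A2 differed by -0.54 (log2) and missed the threshold. The metastin-10 arrays all lay above the control peptide ones for 8 members (CREB5, DUSP4, DUSP5, DUSP6, SPRY2, SPRY4, ETV4 and FOSL1) and all below them for 6 (JUNB, EGR1, NR4A2, KLF4, KLF10 and PHLDA1), against 8.72% and 10.9% of all genes. Of these 14 genes, CREB5 and KLF4 passed. FOS, EGR1, IER2, IER3, IER5, ATF3, MYC and JUN did not pass in any of the 5 contrasts.

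**Figure D1:**
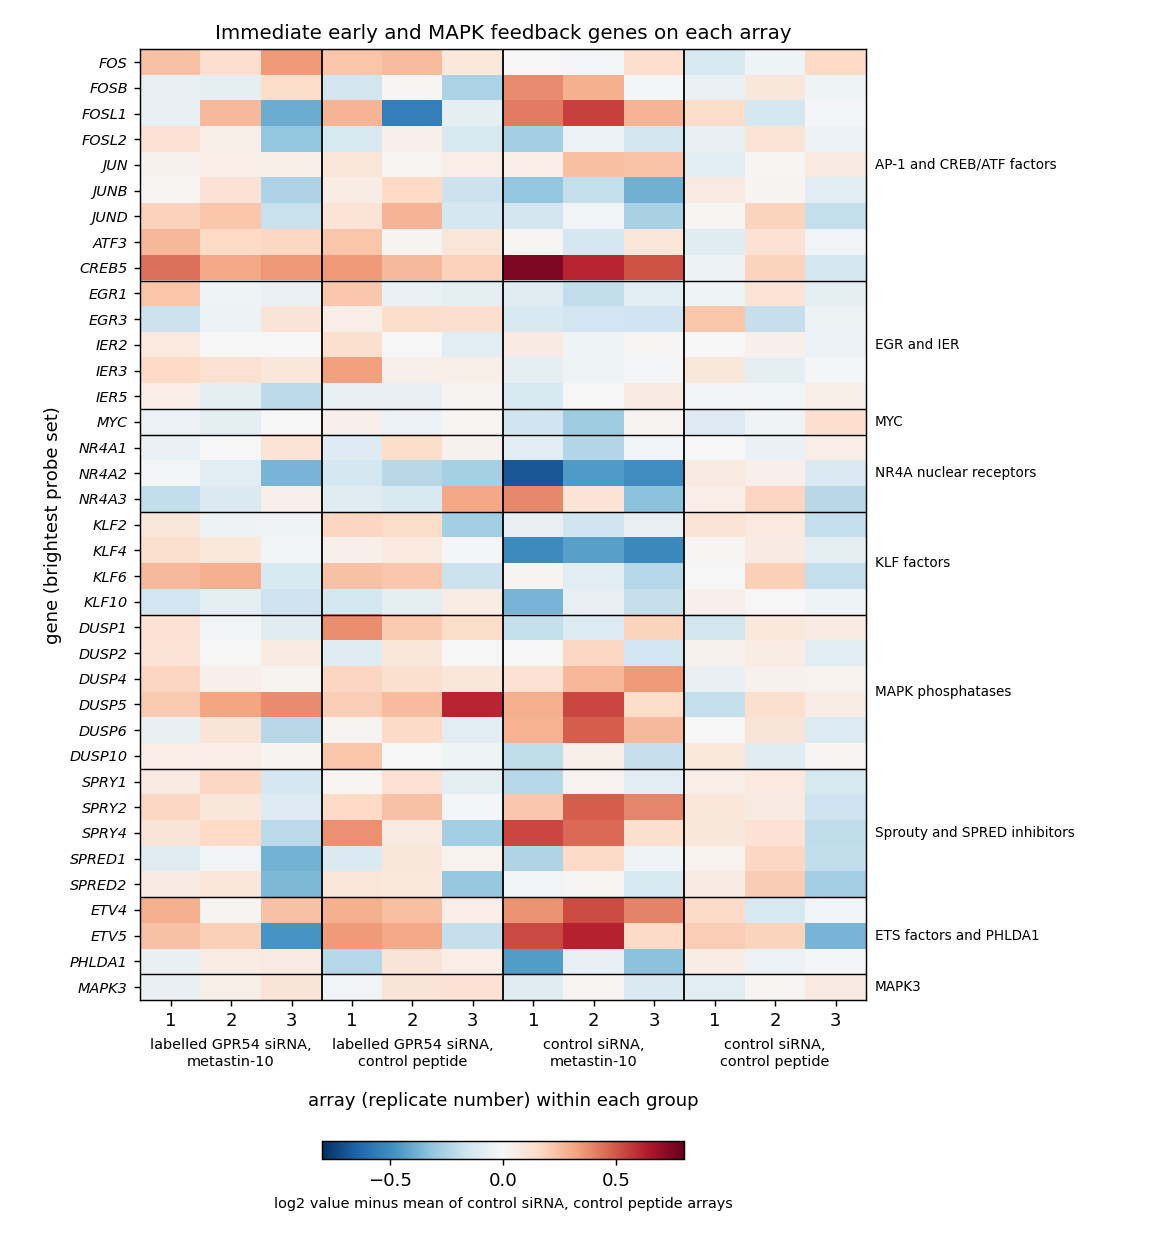
Log2 value of each of the 37 measured genes on each of the 12 arrays, minus the mean of the 3 arrays with control siRNA and control peptide. Columns are arrays by replicate number within the 4 groups and rows are genes by role, with red above and blue below 0. CREB5 is red and KLF4 and NR4A2 are blue on all 3 arrays of control siRNA with metastin-10.

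Among the AP-1 and CREB/ATF factors, CREB5, a basic leucine zipper protein that binds the cAMP response element, was the gene that changed. It stood at 5.15, 5.01 and 5.05 in the metastin-10 arrays labelled GPR54 siRNA and at 5.05, 4.97 and 4.89 in the control peptide arrays with that label. It stood at 5.45, 5.31 and 5.21 in control siRNA with metastin-10, against 4.67, 4.88 and 4.56 in control siRNA with control peptide (log2). All 3 arrays of control siRNA with metastin-10 lay above every array of the other groups. CREB5 was dim, with a mean of 5.02 over all arrays, where the lowest array median was 5.13 (log2). How far its values lie above background was not tested. Under control siRNA CREB5 rose by 0.62 on the log2 scale with metastin-10 (SE 0.10, 95% interval 0.41 to 0.84, 1.54-fold, adjusted p = 0.0182 by limma), to 5.33 ± 0.12 in metastin-10 cells against 4.70 ± 0.16 in control peptide cells (SD, n = 3 each). Of its 3 other probe sets, 1 rose by 0.57 (adjusted p = 0.0215), and it was dimmer still, at a mean of 3.63 over all arrays. The remaining ones differed by 0.25 and -0.01. In the arrays labelled GPR54 siRNA the difference was 0.10 (95% interval -0.12 to 0.32).

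The CREB5 call was kept in 8 of the 12 fits that left out 1 array, with a difference of 0.55 to 0.71 across these fits. The adjusted p became 0.0999 without replicate 1 and 0.0766 without replicate 2 of control siRNA with metastin-10, and 0.0969 without replicate 1 and 0.0699 without replicate 3 of control siRNA with control peptide. With both metastin-10 replicates 1 and 2 of control siRNA left out the difference was 0.51 (adjusted p = 0.580), and it missed the threshold with replicates 1 and 2 of every group only (adjusted p = 0.0658) and with only the compared groups in the fit (0.120).

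The other AP-1 and ATF genes are FOS, FOSB, FOSL1, FOSL2, JUN, JUNB and JUND, whose products pair to form AP-1, and ATF3, a stress-induced repressor. None passed, and their metastin-10 differences under control siRNA ran from -0.30 for JUNB to 0.41 for FOSL1 (log2). FOS, the classic immediate early gene, stood at 5.13, 5.03 and 5.23 in the metastin-10 arrays labelled GPR54 siRNA and 5.12, 5.15 and 4.98 in the control peptide arrays with that label. It stood at 4.90, 4.88 and 5.03 in control siRNA with metastin-10, against 4.77, 4.86 and 5.06 in control siRNA with control peptide, and these groups overlapped (difference 0.04, 95% interval -0.17 to 0.25). JUN differed by 0.17 (95% interval 0.00 to 0.35), with all 4 of its probe sets above 0. JUND, which is a JUN protein held at a steady level in many cells, differed by -0.14 (95% interval -0.44 to 0.16) and ATF3 by -0.01 (95% interval -0.21 to 0.19). JUNB differed by -0.30 (95% interval -0.54 to -0.05, adjusted p = 0.384 by limma) with groups that did not overlap. FOSL1, a late AP-1 member that ERK stabilises, differed by 0.41 with an interval of -0.01 to 0.83, and its SD over the 12 arrays, 0.32, was exceeded among members by that of ETV5 alone (0.33).

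No EGR or IER gene passed, nor did MYC, and their differences were small. EGR1, a zinc finger factor whose promoter carries the CArG boxes shown, stood at 9.03, 8.77 and 8.75 in the metastin-10 arrays labelled GPR54 siRNA and at 9.02, 8.75 and 8.73 in the control peptide arrays with that label. It stood at 8.71, 8.61 and 8.71 in control siRNA with metastin-10, against 8.77, 8.92 and 8.73 in control siRNA with control peptide (log2). The control siRNA groups did not overlap, with metastin-10 the lower (difference -0.13, 95% interval -0.36 to 0.10, adjusted p = 0.703 by limma). EGR3 was dim, at 3.91, 4.04 and 4.18 in the metastin-10 arrays labelled GPR54 siRNA and 4.14, 4.22 and 4.22 in the control peptide arrays with that label. It read 3.96, 3.93 and 3.93 in control siRNA with metastin-10, against 4.31, 3.90 and 4.04 in control siRNA with control peptide. EGR3 groups overlapped in each of the 4 comparisons. IER2, a nuclear protein of the first response, was the steadiest of the 37 genes, with an SD of 0.06 over the 12 arrays against a median SD of 0.16 for the members and 0.14 for all genes. Its metastin-10 difference under control siRNA was 0.01 (95% interval -0.16 to 0.19). IER3, which guards cells against apoptosis, differed by -0.04 (95% interval -0.24 to 0.16), IER5 by -0.02 (95% interval -0.21 to 0.17) and MYC, the growth factor-responsive oncogene, by -0.14 (95% interval -0.35 to 0.06). All 5 EGR and IER genes and MYC had intervals within 0.5 log2 units of 0 on both sides.

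Of the NR4A orphan nuclear receptors, which cAMP and calcium signals induce, NR4A2 stood lowest in control siRNA with metastin-10. It read 6.48, 6.41 and 6.12 in the metastin-10 arrays labelled GPR54 siRNA and 6.35, 6.27 and 6.23 in the control peptide arrays with that label. It read 5.81, 6.04 and 6.0 in control siRNA with metastin-10, against 6.56, 6.54 and 6.38 in control siRNA with control peptide (log2). The control siRNA groups did not overlap, and the difference was -0.54 (SE 0.11, 95% interval -0.77 to -0.31), with an adjusted p of 0.0503 by limma. With the replicate number as a block the adjusted p was 0.0382. Of its 2 other probe sets, 1 fell by 0.58 (adjusted p = 0.0314) and the other differed by -0.49. Without replicate 3 of the metastin-10 arrays labelled GPR54 siRNA the adjusted p was 0.0214, and with metastin-10 replicates 1 and 2 of control siRNA both left out the difference was -0.50 (adjusted p = 0.641). NR4A1 differed by -0.11 (95% interval -0.31 to 0.08) and NR4A3 by 0.06 (95% interval -0.32 to 0.43). Both of the 2 other NR4A1 probe sets were opposite in sign to the brightest one, the higher at 0.33.

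KLF4, a zinc finger factor that restrains the proliferation of epithelial cells, was the member called lower with metastin-10. It stood at 7.26, 7.21 and 7.11 in the metastin-10 arrays labelled GPR54 siRNA and at 7.17, 7.21 and 7.12 in the control peptide arrays with that label. It stood at 6.62, 6.70 and 6.61 in control siRNA with metastin-10, against 7.14, 7.20 and 7.05 in control siRNA with control peptide (log2). The 3 arrays of control siRNA with metastin-10 lay below all 9 others, which spanned 7.05 to 7.26. KLF4 fell by 0.49 on the log2 scale (SE 0.08, 95% interval -0.65 to -0.32, 1.40-fold, adjusted p = 0.0176 by limma), to 6.64 ± 0.05 in metastin-10 cells against 7.13 ± 0.07 in control peptide cells (SD, n = 3 each). Its other, dimmer probe set differed by -0.41 (adjusted p = 0.319), with groups that did not overlap. In the arrays labelled GPR54 siRNA the metastin-10 difference was 0.03 (95% interval -0.14 to 0.19).

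The KLF4 difference stayed between -0.52 and -0.45 whichever array was left out, while its adjusted p passed the threshold in 7 of these 12 fits. It became 0.0864, 0.0528 and 0.0529 without replicate 1, 2 or 3 of control siRNA with metastin-10, and 0.0921 and 0.110 without replicate 1 or 2 of control siRNA with control peptide. With metastin-10 replicates 1 and 2 of control siRNA both left out it was -0.52 (adjusted p = 0.376), and it missed the threshold with replicates 1 and 2 of every group only (adjusted p = 0.0604) and with only the compared groups in the fit (0.110). The other KLF genes did not pass. KLF10, a TGF-beta-induced early gene, differed by -0.21 (95% interval -0.41 to -0.01) with groups that did not overlap. KLF2 differed by -0.10 and KLF6 by -0.10, and the other probe set of KLF2 read 0.45, opposite in sign to its brightest one.

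**Figure D2:**
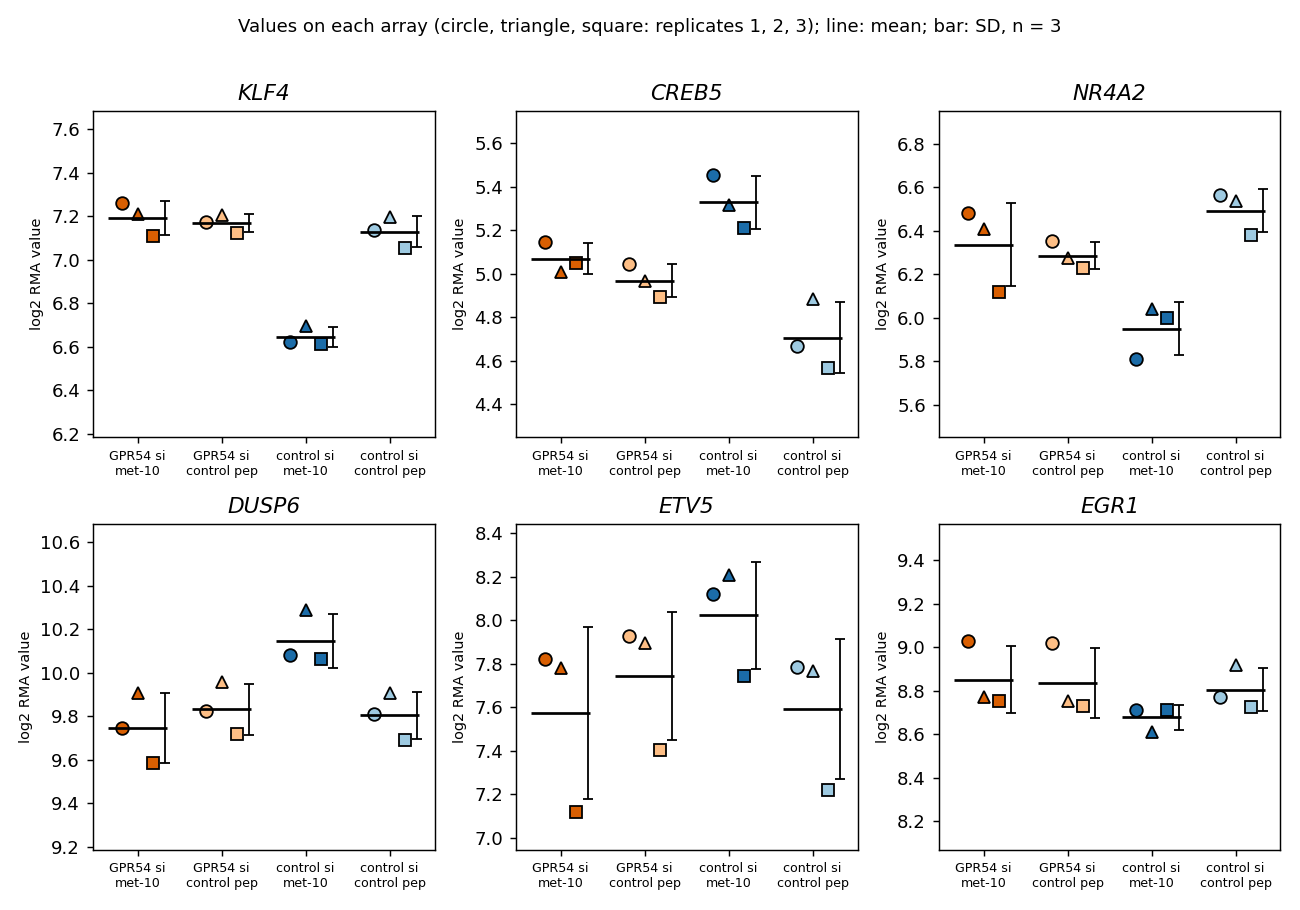
Log2 value on each array for KLF4, CREB5, NR4A2, DUSP6, ETV5 and EGR1, each on its own axis of 1.5 log2 units, by group from labelled GPR54 siRNA with metastin-10 on the left to control siRNA with control peptide on the right. Symbols mark the replicate number, horizontal lines the mean and bars the SD of 3 arrays. KLF4 sits at 6.61 to 6.70 in control siRNA with metastin-10 and at 7.05 or above elsewhere, while ETV5 is lowest at replicate 3 (square) in every group.

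Among the MAPK phosphatases, DUSP6, a cytosolic phosphatase specific for ERK and a standard readout of ERK output, stood at 9.75, 9.91 and 9.58 in the metastin-10 arrays labelled GPR54 siRNA and at 9.82, 9.96 and 9.72 in the control peptide arrays with that label. It stood at 10.08, 10.29 and 10.06 in control siRNA with metastin-10, against 9.81, 9.91 and 9.69 in control siRNA with control peptide (log2). All 3 arrays of control siRNA with metastin-10 lay above the 9 others. The difference was 0.34 (95% interval 0.11 to 0.58, adjusted p = 0.263 by limma), and the same-numbered pairs differed by 0.27, 0.38 and 0.37. With the replicate number as a block the adjusted p was 0.0482, so DUSP6 was called higher in that fit. Its 2 other probe sets differed by 0.27 and 0.31. With metastin-10 replicates 1 and 2 of control siRNA both left out the difference was 0.26 (adjusted p = 0.849), where the lone replicate 3 array is set against the mean of all 3 control peptide arrays.

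DUSP5, a nuclear ERK phosphatase, stood at 5.36, 5.47 and 5.53 in the metastin-10 arrays labelled GPR54 siRNA and 5.35, 5.40 and 5.76 in the control peptide arrays with that label. It stood at 5.44, 5.69 and 5.30 in control siRNA with metastin-10, against 4.96, 5.28 and 5.21 in control siRNA with control peptide. The last group was the low one, with a metastin-10 difference of 0.32 under control siRNA (95% interval 0.03 to 0.61, adjusted p = 0.422 by limma). DUSP4, an inducible nuclear phosphatase of ERK and JNK, differed by 0.24 (95% interval 0.06 to 0.42, adjusted p = 0.316) with groups that did not overlap. At its brightest probe set DUSP1, an immediate early phosphatase of p38, JNK and ERK, did not follow them. It stood at 7.19, 7.06 and 6.98 in the metastin-10 arrays labelled GPR54 siRNA and 7.44, 7.28 and 7.22 in the control peptide arrays with that label. It stood at 6.89, 6.97 and 7.25 in control siRNA with metastin-10, against 6.93, 7.16 and 7.14 in control siRNA with control peptide. DUSP1 groups overlapped under control siRNA (difference -0.04, 95% interval -0.28 to 0.21) and did not under the GPR54 siRNA label (difference -0.24, 95% interval -0.49 to 0.00). The 2 other DUSP1 probe sets differed by 0.29 and -0.05 under control siRNA. Under the GPR54 siRNA label both read higher with metastin-10, at means of 6.20 and 5.58 against 6.14 and 5.47 with control peptide. The DUSP1 direction therefore depends on the probe set. DUSP2 and DUSP10, which is selective for JNK and p38, differed by 0.01 and -0.11 under control siRNA.

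Of the Sprouty and SPRED inhibitors, SPRY2 and SPRY4 had groups that did not overlap under control siRNA, and SPRY1, SPRED1 and SPRED2 had groups that did. SPRY2, chosen for description with its values known, stood at 8.18, 8.11 and 7.92 in the metastin-10 arrays labelled GPR54 siRNA and 8.18, 8.25 and 8.01 in the control peptide arrays with that label. It stood at 8.24, 8.51 and 8.41 in control siRNA with metastin-10, against 8.11, 8.09 and 7.86 in control siRNA with control peptide. The difference was 0.36 (95% interval 0.12 to 0.60, adjusted p = 0.247 by limma), and that of SPRY4 was 0.37 (95% interval 0.01 to 0.73, adjusted p = 0.458). SPRED1, which recruits neurofibromin to RAS, stood at 8.06, 8.14 and 7.78 in the metastin-10 arrays labelled GPR54 siRNA and 8.04, 8.24 and 8.19 in the control peptide arrays with that label. It stood at 7.92, 8.31 and 8.13 in control siRNA with metastin-10, against 8.19, 8.32 and 7.96 in control siRNA with control peptide, with all groups overlapping. SPRY1 differed by -0.10, SPRED1 by -0.04 and SPRED2 by -0.04 under control siRNA.

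ETV4 and ETV5 are ETS transcription factors of the PEA3 family that ERK signalling induces, and PHLDA1 is an early gene with a pleckstrin homology-like domain. ETV5, also chosen with its values known, stood at 7.82, 7.78 and 7.12 in the metastin-10 arrays labelled GPR54 siRNA and 7.93, 7.90 and 7.41 in the control peptide arrays with that label. It stood at 8.12, 8.21 and 7.74 in control siRNA with metastin-10, against 7.79, 7.77 and 7.22 in control siRNA with control peptide (log2). Replicate 3 was the lowest array of each group, and the groups overlapped, with an adjusted p of 0.511 for a difference of 0.43 (95% interval -0.04 to 0.91, limma). Within the numbered pairs the differences were 0.34, 0.44 and 0.52, and with the number as a block the adjusted p was 0.0349. All 5 ETV5 probe sets were above 0, at 0.30 to 0.49. With metastin-10 replicates 1 and 2 of control siRNA both left out the ETV5 difference was 0.15 (adjusted p = 0.977). That fit sets the lone replicate 3 array against the mean of all 3 control peptide arrays, and not against its own pair, for which the difference was 0.52. ETV4 differed by 0.43 (95% interval 0.20 to 0.65, adjusted p = 0.130) with groups that did not overlap, while its other probe set read 0.04.

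PHLDA1 read lower with metastin-10. Its brightest probe set differed by -0.28 (95% interval -0.52 to -0.03, adjusted p = 0.410 by limma), and all 6 of its probe sets were below 0. One of them, at 8.35, 8.38 and 8.14 in the metastin-10 arrays labelled GPR54 siRNA and 8.41, 8.37 and 8.40 in the control peptide arrays with that label, read 7.73, 7.89 and 7.94 in control siRNA with metastin-10, against 8.33, 8.37 and 8.46 in control siRNA with control peptide. That probe set fell by 0.53 (adjusted p = 0.0233), and another differed by -0.51 (adjusted p = 0.136, or 0.0255 with the replicate number as a block). The call for PHLDA1 therefore depends on the probe set. MAPK3, which encodes ERK1 itself, differed by -0.07 (95% interval -0.25 to 0.11).

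**Figure D3:**
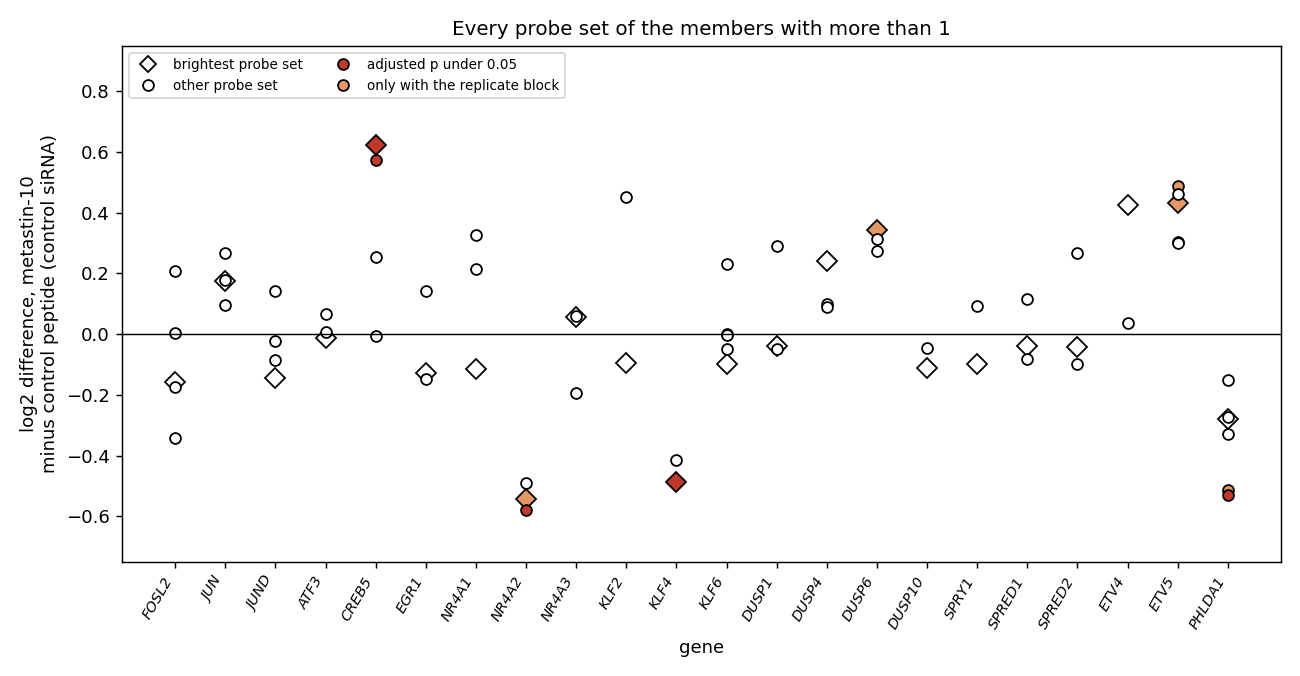
Log2 difference, metastin-10 minus control peptide under control siRNA, for every probe set of the 22 members with more than 1. Diamonds are the brightest probe set and circles the others, filled red where the adjusted p was under 0.05 and orange where it was so only with the replicate block. All probe sets of NR4A2, KLF4 and PHLDA1 lie below 0 and all those of JUN, DUSP4, DUSP6, ETV4 and ETV5 above it.

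Over the 37 genes the contrast was mixed in direction. Metastin-10 was higher under control siRNA for 15 genes and lower for 22, with a median difference of -0.04 against 0.01 over all genes (log2). At an unadjusted p under 0.05 there were 7 higher and 5 lower, where 4.9% of all genes were higher and 7% lower. With the replicate number as a block 3 members were called higher (CREB5, DUSP6 and ETV5) and 2 lower (KLF4 and NR4A2), against 0.157% and 0.865% of all genes. For 25 of the 37 genes the 95% interval lay within 0.5 log2 units of 0 on both sides. Of the 51 probe sets that were not the brightest of their gene, 35 had its sign. For FOSL2, JUND, ATF3, EGR1, NR4A1, KLF2, KLF6, DUSP1, SPRY1, SPRED1 and SPRED2 another probe set read higher where the brightest read lower. For CREB5 and NR4A3 another read lower where the brightest read higher. Over all 88 member probe sets metastin-10 was higher for 44 and lower for 44, so the lean to lower values was one of the brightest probe sets. Whether the sign follows a probe set's level was not tested. The brightest probe set of 4 members carries the array maker's suffix for probes that other transcripts may share, NR4A2 among them.

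Metastin-10 was set against control peptide in the same way under the GPR54 siRNA label. None of the 37 members passed with limma (0 of 37, against 0% of all genes), with or without the replicate number as a block, and 0 had an unadjusted p under 0.05, where 1.81% of all genes did. The differences ran from -0.24 for DUSP1 to 0.13 for FOSB, with a median of -0.01 against -0.01 over all genes (log2). Groups did not overlap for 0 higher members and 1 lower one, DUSP1, against 2.33% and 2.35% of all genes. For 36 of the 37 the 95% interval lay within 0.5 log2 units of 0 on both sides. The exception was ETV5, at -0.17 (95% interval -0.64 to 0.30). DUSP6 differed by -0.09 (95% interval -0.32 to 0.15), SPRY2 by -0.08 (95% interval -0.32 to 0.16), ETV4 by -0.01 (95% interval -0.24 to 0.21) and NR4A2 by 0.05 (95% interval -0.18 to 0.28).

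**Figure D4:**
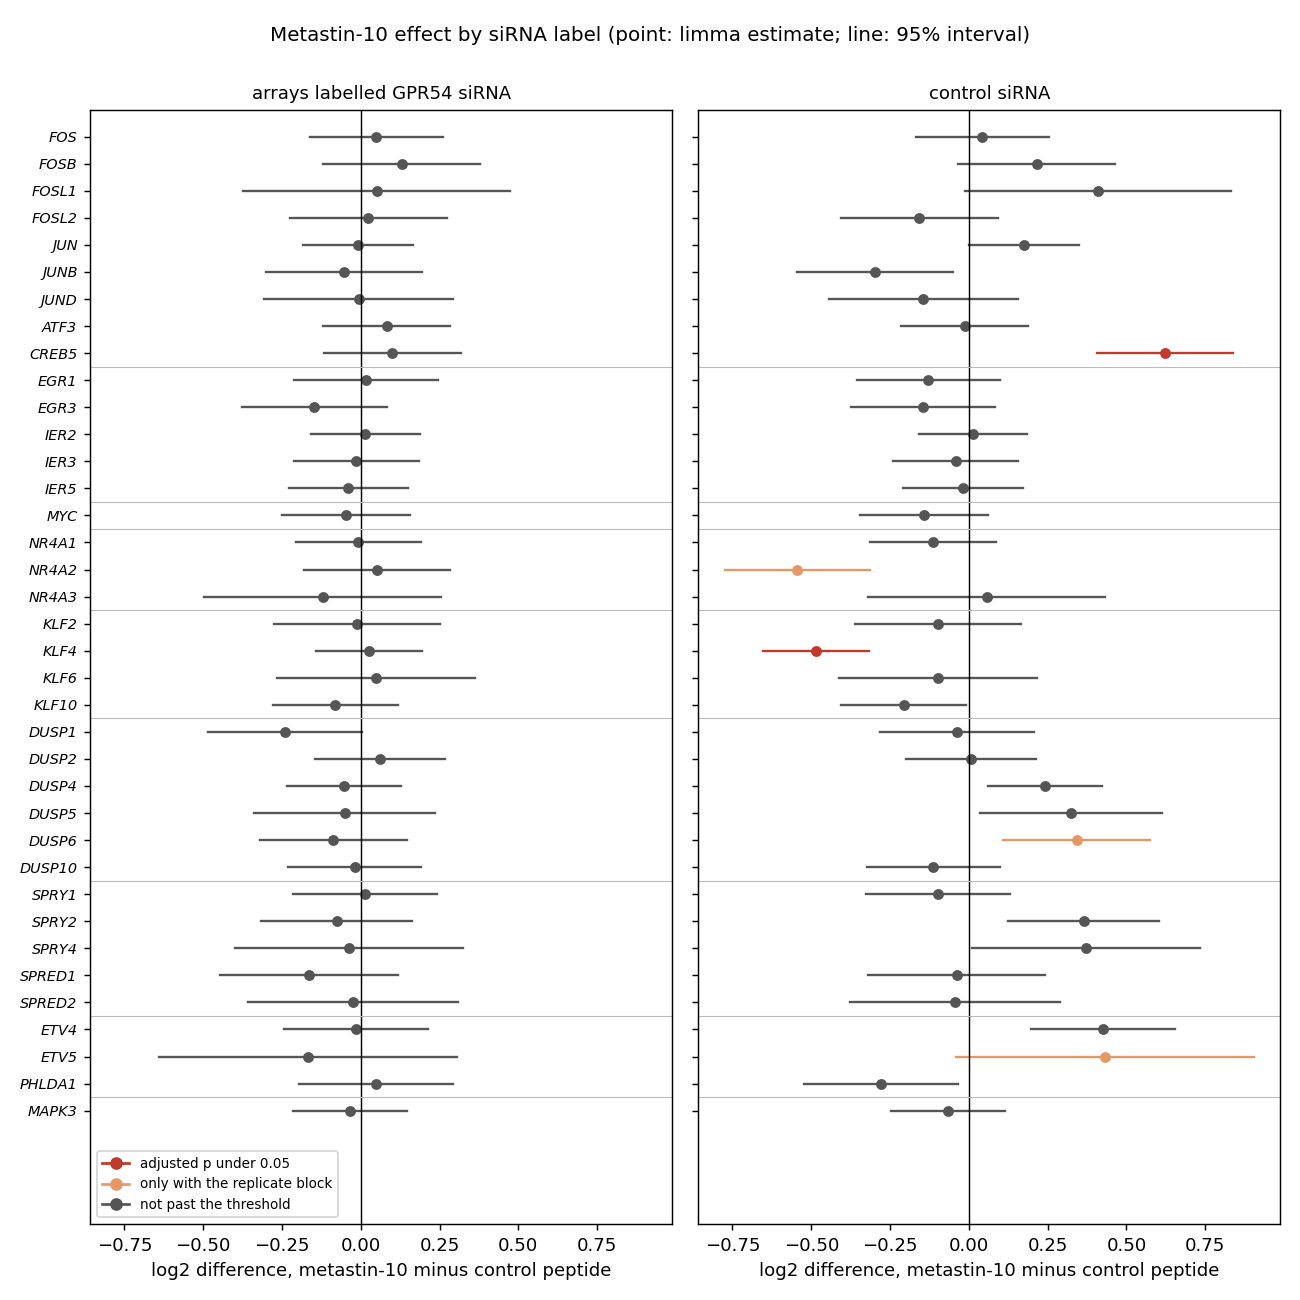
Log2 difference, metastin-10 minus control peptide, for each of the 37 genes in the arrays labelled GPR54 siRNA (left) and in control siRNA (right), with 95% intervals from limma. Red marks an adjusted p under 0.05, orange one reached only with the replicate block. On the left no gene is coloured and estimates lie between -0.24 and 0.13, and on the right CREB5 and KLF4 are red at 0.62 and -0.49.

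Whether the metastin-10 difference itself differed between the siRNA labels was tested as an interaction, the GPR54 siRNA effect minus the control siRNA effect. None of the 37 members passed with limma (0 of 37, against 0.106% of all genes), and 2 were higher and 5 lower at an unadjusted p under 0.05, where 3.5% and 2.78% of all genes were. The interaction was 0.60 for NR4A2 (SE 0.15, 95% interval 0.27 to 0.92, adjusted p = 0.339), 0.51 for KLF4 (SE 0.11, 95% interval 0.27 to 0.75, adjusted p = 0.202) and -0.52 for CREB5 (SE 0.14, 95% interval -0.83 to -0.21, adjusted p = 0.408). With arrays weighted by quality the adjusted p was 0.0376 for NR4A2 and 0.0403 for KLF4. Among the feedback genes it was -0.44 for ETV4 (adjusted p = 0.604), -0.44 for SPRY2 (adjusted p = 0.631), -0.43 for DUSP6 (adjusted p = 0.631) and -0.30 for DUSP4 (adjusted p = 0.727). A difference between siRNA labels in the response of these genes was thus not shown at the threshold.

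The siRNA labels were then compared under each peptide. With control peptide, none of the 37 members passed with limma (0 of 37, against 0% of all genes), and 2 were higher at an unadjusted p under 0.05 (CREB5 and DUSP5) and 0 lower, where 1.77% and 1.03% of all genes were. CREB5 differed by 0.26 (95% interval 0.05 to 0.48) and DUSP5 by 0.35 (95% interval 0.06 to 0.64). DUSP1 differed by 0.24 (95% interval 0.00 to 0.49) and NR4A2 by -0.21 (95% interval -0.44 to 0.02), both with groups that did not overlap. Groups did not overlap for 4 higher members and 1 lower one, against 6.34% and 2.9% of all genes.

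With metastin-10, 1 of the 37 members passed: KLF4 was 0.55 higher in the arrays labelled GPR54 siRNA than in control siRNA (SE 0.08, 95% interval 0.38 to 0.72, 1.46-fold, adjusted p = 0.00575 by limma). Over all genes 0.966% were called higher and 0.0708% lower. This contrast shares its control siRNA arrays with the metastin-10 contrast under control siRNA, so the 2 are not independent. KLF4 passed in all 12 fits that left out 1 array, with an adjusted p of 0.00901 to 0.0414, and not with metastin-10 replicates 1 and 2 of control siRNA both left out (0.58, adjusted p = 0.232). NR4A2 differed by 0.39 (95% interval 0.16 to 0.62, adjusted p = 0.186), DUSP6 by -0.40 (95% interval -0.63 to -0.17, adjusted p = 0.174) and PHLDA1 by 0.30 (95% interval 0.06 to 0.55, adjusted p = 0.371). The brightest probe set of CREB5 differed by -0.26 (95% interval -0.48 to -0.04, adjusted p = 0.394), while a dimmer one was called lower at -0.50 (adjusted p = 0.0377). That dimmer CREB5 probe set read 3.45, 3.57 and 3.52 in the arrays labelled GPR54 siRNA, against 4.06, 4.12 and 3.85 in control siRNA. At an unadjusted p under 0.05 there were 5 higher and 5 lower members, against 8.76% and 4.32% of all genes. The groups did not overlap for 7 higher and 5 lower members, against 11.2% and 6.35% of all genes, and the median was 0.08 against 0.00 over all genes (log2).

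The wider pathway was read in 68 listed genes, of which 57 were measured. The RAS, RAF, MEK and ERK cascade (10 of 15 measured), the kinases and cofactors that ERK activates (12 of 12), the p38 and JNK kinases (5 of 8) and the CREB and ATF factors (8 of 9) had no member past the threshold in any contrast with limma. With metastin-10 under control siRNA these lists had medians of -0.02, -0.06, -0.01 and 0.02 against 0.01 over all genes (log2), and 1, 1, 0 and 2 of their members had an unadjusted p under 0.05, where 4.9% of all genes were higher and 7% lower. Their smallest p-values were for SOS2, an exchange factor that loads RAS (0.22 between siRNA labels with metastin-10, adjusted p = 0.413), RPS6KA5, a kinase that phosphorylates CREB and histones (-0.37 with metastin-10 under control siRNA, adjusted p = 0.216), MAP2K6, which activates p38 (0.26 between siRNA labels with metastin-10, adjusted p = 0.352), and ATF2 (-0.29 with metastin-10 under control siRNA, adjusted p = 0.306). Of 12 other early response genes measured (13 listed), 1 was called, lower with metastin-10 under control siRNA (0.531% of all genes) and higher with the GPR54 siRNA label under metastin-10 (0.966% of all genes). BHLHE40, a helix-loop-helix repressor tied to hypoxia and the circadian clock, stood at 8.74, 8.72 and 8.58 in the metastin-10 arrays labelled GPR54 siRNA and 8.69, 8.71 and 8.67 in the control peptide arrays with that label. It stood at 7.81, 7.92 and 7.88 in control siRNA with metastin-10, against 8.39, 8.65 and 8.41 in control siRNA with control peptide. BHLHE40 fell by 0.61 with metastin-10 under control siRNA (adjusted p = 0.00900) and was 0.81 higher with the GPR54 siRNA label under metastin-10 (adjusted p = 0.00104). Of 10 other phosphatases and feedback inhibitors measured (11 listed), none passed. The nearest was ERRFI1, which binds and inhibits EGF receptor family kinases, at 9.97, 9.95 and 9.85 in control siRNA with metastin-10, against 9.56, 9.56 and 9.56 in control siRNA with control peptide (difference 0.36, adjusted p = 0.0511 by limma, or 0.0357 with the replicate number as a block).

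Like KLF4, BHLHE40 and KISS1R, the epithelial marker KRT19 was lowest in control siRNA with metastin-10. It stood at 12.36, 12.41 and 12.36 in the metastin-10 arrays labelled GPR54 siRNA and 12.38, 12.38 and 12.35 in the control peptide arrays with that label, and at 11.77, 11.82 and 11.77 in control siRNA with metastin-10, against 12.23, 12.28 and 12.27 in control siRNA with control peptide. KRT19 fell by 0.48 with metastin-10 under control siRNA (adjusted p = 0.00900 by limma), and its part in the KLF4 result was not tested. It was the only 1 of the 6 epithelial markers called in that contrast, where 0.531% of all genes were called lower. The differences of the 6 ran from -0.48 to 0.02, with a median of -0.13 (log2). With the GPR54 siRNA label under metastin-10 KRT19 was 0.59 higher (adjusted p = 0.00165 by limma), where 0.966% of all genes were called higher.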

How the data were processed

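The 12 Affymetrix U133 Plus 2.0 arrays of Ishikawa cells fall 3 to each of 4 groups taken from the labels. The authors deposited log2 values per probe set. Per the submitters' processing notes these come from RMA, which corrects background and brings the arrays towards 1 distribution. A shift of most genes may therefore not show. The deposited values still differed in distribution. Array medians ran from 5.13 to 5.22 and upper quartiles from 7.23 to 7.42 (log2). In control siRNA with metastin-10, replicate 1 had the highest median and the lowest upper quartile of the 12 arrays. Replicates 2 and 3 of that group had medians of 5.18 and 5.15 and upper quartiles of 7.29 and 7.35. Re-centring on the median leaves such a difference in spread, and its part in the calls was not tested. The software version is not given in the sources used here. Without scanner files, which were not used here, no background level is known, and low values such as those of EGR3 may understate a change. The number of arrays limits the precision. The half-width of a member's 95% interval had a median of 0.23 (log2).

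Of 54675 probe sets, 62 control ones were left out. The 54613 tested were named by the platform's gene annotation (41091 with 1 gene, 1801 with several and not named, 11721 unnamed here). Limma 3.58.1 in R 4.3.3 fitted 4 group means over the 12 arrays, with 5 contrasts, with Benjamini-Hochberg adjustment over all probe sets of a contrast (two-sided, threshold 0.05). The fit was tested on simulated data whose noise was independent between arrays, with no shared effect of the replicate number. That test cannot say how the fit behaves where arrays of the same number vary together. Members and lists were chosen with earlier results of these data known, and CREB5 was already among the genes shown to change, so its inclusion is no independent evidence.

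Members described array by array are those past the threshold in any contrast, the 3 with the smallest p in each contrast, and KISS1R, while FOS, EGR1, SPRY2, ETV5 and 1 PHLDA1 probe set were added with their values known. Pathway genes named are up to 4 past the threshold per contrast and list, or the 1 with the smallest p. Replicate numbers come from the sample titles. After subtraction of group means, arrays with the same number correlated at 0.17 to 0.44 for metastin-10 under control siRNA, 0.26 to 0.52 in the arrays labelled GPR54 siRNA and 0.11 to 0.54 for the siRNA labels with control peptide, and at -0.15 to 0.26 for the siRNA labels with metastin-10. The fit behind the calls, intervals and adjusted p-values is without the block, and the blocked value stands beside a result of the first 3 of these comparisons where it changes the call. Alternatives were the replicate block, replicate 3 as a block or left out, a fit of only the groups compared, array weights, a variance trend, re-centring, a filter at a mean of 5, the mean of all probe sets of a gene and leaving out each array.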

Additional observations from a re-analysis of the deposited data

Results flagged for a closer look

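The metastin-10 effect on KISS1R, the targeted gene and not a member, differed between the siRNA labels in a test of the difference itself. KISS1R differed with metastin-10 by 0.01 in the arrays labelled GPR54 siRNA and fell by 0.88 under control siRNA (log2), and the GPR54 siRNA effect minus the control siRNA effect was 0.89 (0.889035, SE 0.14, adjusted p = 0.04996 by limma). This call was near the threshold. It was kept in 1 of 12 fits that left out 1 array (adjusted p 0.0369 to 0.198), and in 6 of 9 other alternatives (adjusted p 0.00612 to 0.516), among them the replicate block (0.0228). The difference was above 0 in all of them, at 0.81 to 0.98. Whether the arrays of control siRNA with metastin-10 are assigned to the right group was not tested.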

How the results depend on the processing

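With metastin-10 under control siRNA, 2 members were called. There were 5 in the fit with the replicate block, 4 when replicate 3 was set as a block, and 0 with replicates 1 and 2 only, with only the 2 groups compared, or with metastin-10 replicates 1 and 2 of control siRNA left out together (an alternative chosen after seeing the data, where the lone array is assumed to vary like the other groups). One array left out gave 0 to 3. For the siRNA labels with metastin-10, where 1 was called, the replicate block and replicate 3 as a block each gave 3 (KLF4, DUSP6 and ETV5), array weights 3, the mean of all probe sets 2, only the 2 groups compared 0, those 2 arrays left out 0, and every array left out singly 1. The interaction had 0 members, and 2 with array weights. The 2 contrasts with no member called, metastin-10 in the arrays labelled GPR54 siRNA and the siRNA labels with control peptide, had 0 in every alternative run. No called value changed sign. Other settings changed no call count of members by over 1.5 times, and fitting only 2 groups leaves fewer arrays for the spread. The cause of the other shifts was not tested.

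Over all probe sets, 234 were called with metastin-10 under control siRNA, and 422 with the replicate block, 532 where replicate 3 formed its own block, 495 with array weights, 368 with a variance trend, 77 with 2 groups only and 1 without those 2 arrays. Leaving out 1 array gave 71 (without control peptide replicate 2 of control siRNA) to 263, with 85 and 103 without metastin-10 replicate 1 or 2 of control siRNA and 87 and 131 without control peptide replicate 1 or 3. For the siRNA labels with metastin-10 it was 316, and 504, 602, 2016, 480, 57 and 12 under the same settings, with 582 above the level filter. Leaving out 1 array gave 129 to 332, with 136 and 149 without metastin-10 replicate 1 or 2 of control siRNA and 129 and 138 without the same replicates labelled GPR54 siRNA. For the siRNA labels with control peptide it was 29, with 0 to 130 under the alternatives and 3 to 44 with 1 array left out (lowest without control peptide replicate 3 labelled GPR54 siRNA), and for the interaction 28, with 0 to 250 and 6 to 32 (lowest without metastin-10 replicate 2 labelled GPR54 siRNA).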
